A study of Mus musculus with 6 samples.

Results

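The genes described here encode spliceosome proteins, SR proteins and hnRNP proteins. They were taken as every gene whose symbol begins with Srsf, Hnrnp, Snrp, Sf3a or Sf3b, which gave 52 of the 24411 genes listed in the files. These were 11 Srsf, 20 Hnrnp, 12 Snrp, 3 Sf3a and 6 Sf3b genes. Their expression was read from RNA-seq libraries of macrophages that had been cultured from bone marrow monocytes. The mice were of the common inbred strain C57BL/6. The monocytes had been separated by flow cytometry into a subset with high LFA1 and Itgam (LFA1-hi Itgam-hi, here LFA1-hi) and a subset with low LFA1 and Itgam (LFA1-lo Itgam-lo, here LFA1-lo). LFA1 and the integrin that contains Itgam (CD11b) are leukocyte adhesion receptors. Both subsets were then differentiated in the same medium, with 20 ng/ml macrophage colony-stimulating factor (M-CSF) and 10% fetal bovine serum, which was replaced on day 4, and RNA was taken on day 7. There were 3 libraries per subset. The names LFA1-hi and LFA1-lo refer to the sort before culture. The labels give neither the age of the mice nor the number of animals or cultures behind a subset. The p-values therefore rest on the variation among these libraries, part or all of which may be technical.

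Introns are removed from pre-mRNA by the spliceosome, which is assembled anew on each intron from small nuclear ribonucleoproteins (snRNPs). A snRNP of the U1, U2, U4 or U5 type is a small RNA held in a ring of Sm proteins together with proteins particular to that snRNP. SR proteins bind mostly exonic enhancers and recruit the spliceosome, while hnRNP proteins coat nascent transcripts and often repress splice sites. Macrophages splice the transcripts of many inflammatory genes in ways that depend on these regulators.

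Of the 52 genes, 50 passed the filter on low counts and were tested. Snrpn, an imprinted and largely neuronal relative of the Sm gene Snrpb, and the SR gene Srsf12 had 0 counts in all 6 libraries, where the limit set by 3 counts was 0.170 to 0.197 CPM, a unit that sets each library's total to 1000000. In LFA1-hi macrophages 20 of the 50 tested genes rose and 0 fell relative to LFA1-lo macrophages (edgeR, quasi-likelihood test, Benjamini-Hochberg adjusted p under 0.05). Of all 11692 tested genes, 16.1% rose and 15.6% fell under the same rule. Counts for each group of the 50 genes below are to be read against these shares. Higher genes were 50.8% of all calls, and 60.9% with scaling by library totals, where 26 of the 50 rose. Under that scaling 2294 of all 11692 genes rose, against 1883 as reported, and without LFA1-lo replicate 2 21.8% of all tested genes rose. Counts under these settings are to be read against those totals. At an unadjusted p under 0.05 in edgeR, 24 of the 50 were higher and 1 was lower, and DESeq2 called 20 higher and 1 lower. With the filter raised to at least 10 CPM in 3 libraries, edgeR called 20 higher and 1 lower, where 19.6% of all genes that passed that filter rose. The gene called lower in these alternatives was Hnrnph2, which was also called lower without LFA1-lo replicate 1. The called differences were modest. They lay between 0.26 and 0.88 on the log2 scale (LFA1-hi minus LFA1-lo throughout), and 0 reached 2-fold. The median log2 fold change was 0.23 over the 50 genes and 0.00 over all tested genes, and 43 of the 50 were above 0. Levels in TPM (transcript abundance per unit of transcript length, scaled to the same total in each library) did not overlap between the subsets for 28 genes with LFA1-hi above (23.7% of all tested genes) and for 2 genes with LFA1-lo above (23.5%). All 20 called genes were among the 28.

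The 52 genes together took 0.668%, 0.686% and 0.641% of TPM in LFA1-hi replicates 1, 2 and 3, and 0.521%, 0.573% and 0.532% in LFA1-lo replicates 1, 2 and 3. The share averaged 0.665% ± 0.0226 in LFA1-hi and 0.542% ± 0.0271 in LFA1-lo libraries (SD, n = 3 each), a ratio of 1.23. These are shares of each library's RNA, and in bulk samples fewer cells of a type and less RNA per cell cannot be told apart.

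**Figure D1:**
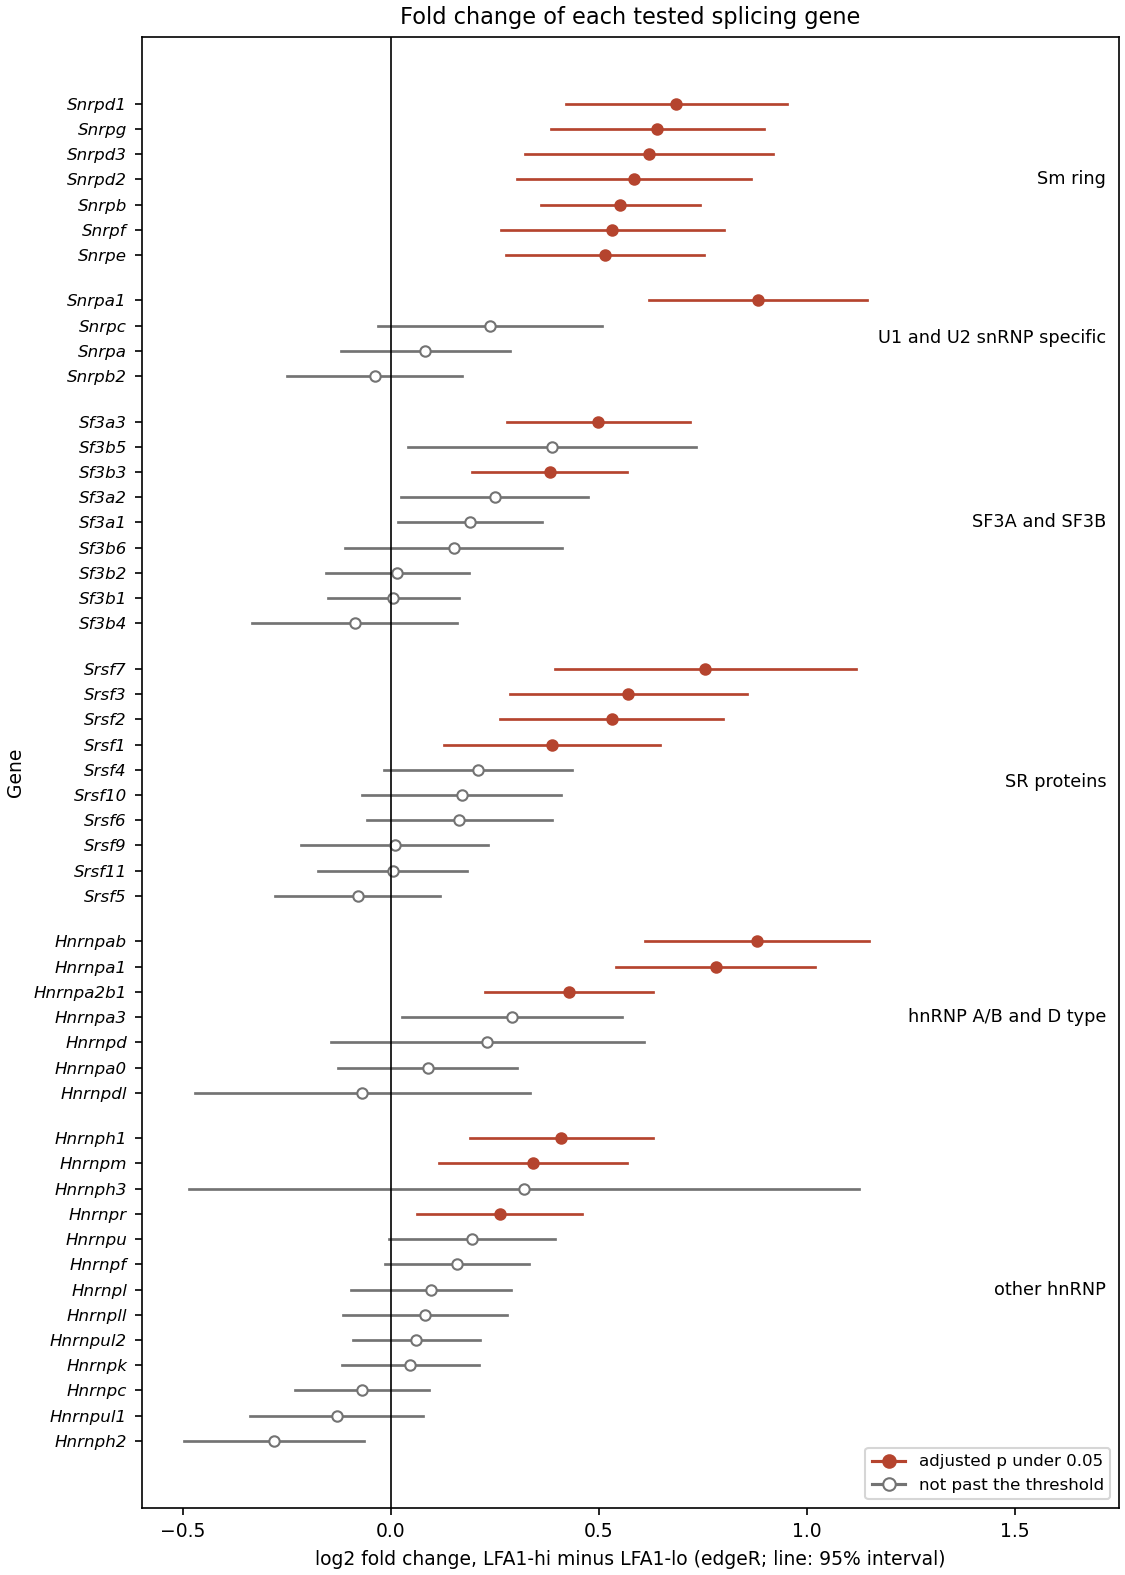
Log2 fold change (LFA1-hi minus LFA1-lo, x axis) of each of the 50 tested splicing genes (y axis), grouped by role, with lines for the 95% interval and filled points for genes past an adjusted p of 0.05 in edgeR. The 7 Sm ring genes are all filled, between 0.52 and 0.69, while in the other groups called genes stand beside genes near 0.

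Summed expected counts were 15191262 to 17614509 in LFA1-hi and 16404922 to 17115544 in LFA1-lo libraries. Pearson correlations of log2 CPM were 0.984 to 0.988 within LFA1-hi, 0.969 to 0.979 within LFA1-lo and 0.934 to 0.952 between the subsets. All 10 macrophage markers examined were detected, and their summed level, of which Lyz2 was the largest term, was 24014 to 27319 TPM in LFA1-hi and 28079 to 39861 TPM in LFA1-lo libraries. Of the 10, 1 rose and 6 fell in LFA1-hi macrophages (edgeR), among them Csf1r, the M-CSF receptor gene (log2 fold change −1.02), and Adgre1, which encodes F4/80 (−0.83). Lyz2, also among the 6, sat at the threshold (edgeR adjusted p = 0.04996), overlapped between the subsets and was called in 6 of the 18 alternatives. Itgam, a marker of the sort, did not pass the test (481 ± 26.3 TPM in LFA1-hi and 510 ± 49.2 TPM in LFA1-lo libraries, log2 fold change −0.06, edgeR adjusted p = 0.646). The summed level of 9 neutrophil and granulocyte precursor genes was 23.1 to 34.5 TPM in LFA1-hi and 53.6 to 181.5 TPM in LFA1-lo libraries, with S100a9 (tested, lower in LFA1-hi) the leading gene in LFA1-lo replicates 2 and 3 and Elane and Mpo at 1.28 TPM or less in every library. Of 8 lymphocyte markers 5 were at 0 in all libraries, and their sum did not exceed 0.41 TPM. Dendritic cell markers summed to 2.56 to 5.87 TPM, and the erythroid and megakaryocyte markers other than Pf4 were each at 0.68 TPM or less. The 12 DNA replication and mitosis genes examined were all higher in LFA1-hi macrophages, where they summed to 1183, 1282 and 1117 TPM in replicates 1, 2 and 3, against 412, 371 and 516 TPM in LFA1-lo replicates 1, 2 and 3. Their part in the differences of the splicing genes, and that of the macrophage and granulocyte genes, was not tested. Among the LFA1-lo libraries, replicate 2 had the lowest sum of replication genes and the highest share of splicing genes. This describes that library only and was not tested, and between the subsets both were higher in LFA1-hi libraries.

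The Sm ring is the core that the snRNPs share. All 7 of its tested genes rose in LFA1-hi macrophages, with a median log2 fold change of 0.58, and all 7 were called in each of the 18 alternative fits. Among these were the 6 that left out a library. Their summed level was 1554, 1505 and 1454 TPM in LFA1-hi replicates 1, 2 and 3, and 950.1, 1037 and 1029 TPM in LFA1-lo replicates 1, 2 and 3. The means were 1505 ± 50.1 TPM in LFA1-hi and 1005 ± 47.8 TPM in LFA1-lo libraries (SD, n = 3 each), a ratio of 1.497.

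Upstream sequence is shown for Snrpa1, which had the largest log2 fold change of the 50 genes, and for the Sm ring genes Snrpe and Snrpf, as examples of genes that moved together. Each is the stretch, within the 250 bases before the start of the gene's span in RefSeq (GRCm38.p6), that GENCODE M21 annotates as neither untranslated nor coding sequence of any gene, and only stretches of at least 100 bases were kept. RefSeq promoters were matched for 46 of the 52 genes. Snrpa1 is given from chr7:66060086-66060335 (plus strand), Snrpe from chr1:133610292-133610530 (minus strand) and Snrpf from chr10:93589707-93589908 (minus strand), each written 5′ to 3′ with matches to 5 searched motifs in capitals.
Snrpa1: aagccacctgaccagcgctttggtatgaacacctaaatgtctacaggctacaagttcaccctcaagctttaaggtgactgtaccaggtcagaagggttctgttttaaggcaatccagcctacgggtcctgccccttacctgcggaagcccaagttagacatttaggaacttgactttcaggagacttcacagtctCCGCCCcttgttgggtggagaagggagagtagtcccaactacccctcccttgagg
Snrpe: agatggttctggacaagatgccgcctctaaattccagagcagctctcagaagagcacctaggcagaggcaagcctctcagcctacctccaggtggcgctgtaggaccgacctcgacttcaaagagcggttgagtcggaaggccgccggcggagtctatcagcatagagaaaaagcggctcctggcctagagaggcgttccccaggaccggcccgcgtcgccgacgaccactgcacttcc
Snrpf: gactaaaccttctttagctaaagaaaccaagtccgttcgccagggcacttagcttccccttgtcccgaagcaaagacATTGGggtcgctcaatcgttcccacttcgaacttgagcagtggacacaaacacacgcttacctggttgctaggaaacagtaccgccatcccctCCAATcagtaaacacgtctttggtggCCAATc
The motifs were searched on both strands, and matches of different motifs did not overlap in the printed stretches. The Snrpf stretch held 3 matches to CCAAT, 1 of them as the reverse complement. The Snrpa1 stretch held 1 match to GGGCGG, as the reverse complement. The Snrpe stretch held 0 matches to the 5 motifs. It ends 11 bases before the start of the gene's span, and in the count below, over full windows, Snrpe is among the genes with CCGGAA. For the count over genes, all windows of 250 bases that RefSeq gives before a transcript start were searched. For 21 of the 46 genes a window ended at the start of the gene's span, and for the rest the windows lay before inner starts. In 9 of the 46 genes there was more than 1 window, and a match in any counted. CCAAT was found for 22 of 46 genes, 11 of 18 called and 10 of 26 tested but not called, against 40.8% of tested genes with a promoter. The motif CCGGAA was found for 23 of 46 genes (10 of 18 called, 12 of 26 not called), against 26.7% of tested genes. For GGGCGG it was 33 of 46 (10 of 18 called, 22 of 26 not called), against 64.3%. For CACGTG it was 4 of 46 (0 of 18 called, 4 of 26 not called), against 10.1%. For TATAAA it was 6 of 46 (4 of 18 called, 1 of 26 not called), against 7.58%. These are matches of letters in a window and describe no bound site.

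Snrpd1 and Snrpg had the largest log2 fold changes of the ring. Snrpd1, which encodes SmD1, was at 158, 159 and 150.4 TPM in LFA1-hi replicates 1, 2 and 3, and at 90.4, 111.7 and 90.2 TPM in LFA1-lo replicates 1, 2 and 3 (log2 fold change 0.69, SE 0.12, edgeR adjusted p = 0.00239). Snrpg (chr6:86371540-86378902), which encodes SmG, was at 289.9, 291 and 275 TPM in LFA1-hi and at 173, 178 and 197 TPM in LFA1-lo replicates 1, 2 and 3 (log2 fold change 0.64, SE 0.11, edgeR adjusted p = 0.00279). The subsets did not overlap for either gene, and the lowest LFA1-hi value was above the highest LFA1-lo value by more than the SD of either subset. Snrpd3 (chr10:75518042-75535440), which encodes SmD3, was at 218, 178 and 199 TPM in LFA1-hi and at 114, 136 and 139.6 TPM in LFA1-lo replicates 1, 2 and 3 (log2 fold change 0.62, SE 0.13). Snrpd2 (chr7:19149445-19152734), which encodes SmD2, was at 287, 269 and 254 TPM in LFA1-hi and at 162, 169.6 and 210.2 TPM in LFA1-lo replicates 1, 2 and 3 (log2 fold change 0.58, SE 0.12). For Snrpd2 the highest LFA1-lo library was replicate 3 and for Snrpd1 it was replicate 2, so no single LFA1-lo library was nearest to LFA1-hi across the ring.

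Snrpb (chr2:130171636-130179382) encodes the SmB proteins of the ring, and it was at 229, 234 and 208 TPM in LFA1-hi and at 151, 161 and 151 TPM in LFA1-lo replicates 1, 2 and 3 (log2 fold change 0.55, SE 0.09). Snrpe was at 261, 266 and 269 TPM in LFA1-hi and at 189, 199 and 171 TPM in LFA1-lo replicates 1, 2 and 3 (log2 fold change 0.52, SE 0.11). Snrpf was at 112, 109 and 98.3 TPM in LFA1-hi and at 71.6, 81.5 and 69.5 TPM in LFA1-lo replicates 1, 2 and 3 (log2 fold change 0.53, SE 0.12). The 7 point estimates spanned only 0.52 to 0.69, and their 95% intervals overlapped each other. The Sm genes are short, with 393 to 1121 bases of transcript, and short genes as a whole were more often higher than lower in LFA1-hi libraries. Of the 1172 tested genes no longer than the longest Sm gene, 25.8% rose and 6.74% fell, with a median log2 fold change of 0.19. The part of gene length in the Sm result was not tested. Snrpd3 and Snrpf overlap other annotated genes, so reads in the shared stretches may belong to either. Expected counts were whole in all 6 libraries for Snrpd3 and were not whole in 5 for Snrpf.

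**Figure D2:**
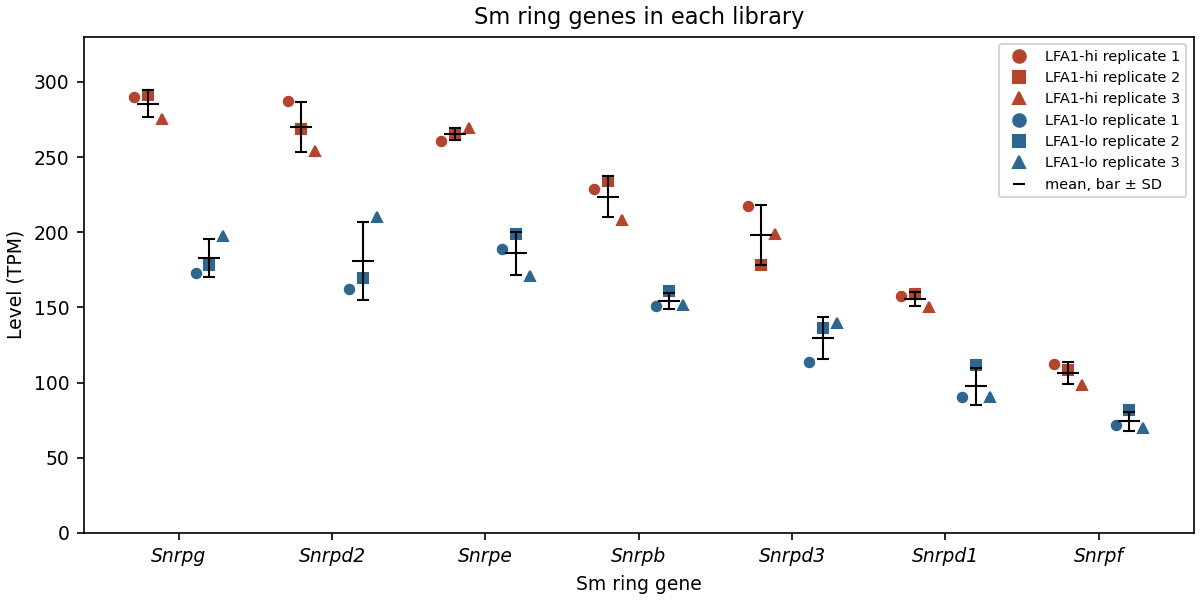
Level (TPM, y axis) of each Sm ring gene (x axis) in each library, with LFA1-hi in red left of LFA1-lo in blue, marker shape giving the replicate number and black bars the mean ± SD of 3 libraries. For all 7 genes the 3 LFA1-hi libraries lie above the 3 LFA1-lo libraries.

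Among the 4 Snrp genes for proteins particular to the U1 or U2 snRNP, Snrpa1 rose and the other 3 did not pass the test. Snrnp70, a U1 protein gene outside the prefix rule, also rose and is given with the Snrnp genes below. Snrpa1 (chr7:66060336-66074587) encodes the A′ protein of the U2 snRNP, which binds U2 RNA together with the B″ protein, the product of Snrpb2. Snrpa1 was at 57.2, 56.3 and 50.9 TPM in LFA1-hi and at 30.1, 31.9 and 28.2 TPM in LFA1-lo replicates 1, 2 and 3, and the subsets did not overlap (log2 fold change 0.88, SE 0.12, edgeR adjusted p = 0.000597). Snrpb2 was at 68.7, 70.03 and 63.4 TPM in LFA1-hi and at 74.7, 64.6 and 71.03 TPM in LFA1-lo replicates 1, 2 and 3 (log2 fold change −0.04, 95% interval −0.25 to 0.17, edgeR adjusted p = 0.781). The subsets overlapped, and the sign for Snrpb2 turned to 0.02 with scaling by library totals. The TPM ratio of Snrpa1 to Snrpb2 was 0.833, 0.804 and 0.803 in LFA1-hi and 0.404, 0.493 and 0.397 in LFA1-lo replicates 1, 2 and 3. This pair was chosen after its values were seen, and it was among 6 ratios tested with a 2-sided exact permutation test (p = 0.1, the smallest that 3 against 3 libraries allow, adjusted p = 0.12 over the 6).

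Snrpc, which encodes the C protein of the U1 snRNP that contacts the 5′ splice site, was at 145, 148 and 139 TPM in LFA1-hi and at 108, 138 and 122 TPM in LFA1-lo replicates 1, 2 and 3. The LFA1-hi libraries were above, by a narrow margin over LFA1-lo replicate 2, and the difference did not pass the test (log2 fold change 0.24, SE 0.12, edgeR adjusted p = 0.161). Without LFA1-lo replicate 2 it did (log2 fold change 0.36, edgeR adjusted p = 0.00923). Snrpa, which encodes the A protein of the U1 snRNP and is a paralog of Snrpb2, was at 75.6, 83.7 and 69.9 TPM in LFA1-hi and at 72.8, 69.4 and 76.5 TPM in LFA1-lo replicates 1, 2 and 3, and the subsets overlapped (log2 fold change 0.08, SE 0.09). The ratio of Snrpa to Snrpb2 was 1.13 ± 0.0537 in LFA1-hi and 1.04 ± 0.0582 in LFA1-lo libraries (SD, n = 3 each). Its exact permutation p was 0.1, again the smallest that 3 against 3 libraries allow (adjusted p = 0.12 over the 6 ratios).

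The SF3A and SF3B complexes belong to the U2 snRNP and hold it on the branch site of the intron. Of their 9 genes with the Sf3a or Sf3b prefix, 2 rose and 0 fell in LFA1-hi macrophages. At an unadjusted p under 0.05 in edgeR none of the 9 was lower, nor was any called lower in DESeq2. Phf5a, an SF3B subunit gene outside the prefix rule, also rose and is given below. Of all tested genes 16.1% rose and 15.6% fell. Summed levels of the 9 genes were 757, 743 and 727 TPM in LFA1-hi and 651, 689 and 671 TPM in LFA1-lo replicates 1, 2 and 3, a ratio of 1.11. Sf3a3 (chr4:124714861-124732423), an SF3A subunit gene, was at 56.6, 60.03 and 55.96 TPM in LFA1-hi and at 39.7, 44.2 and 39.8 TPM in LFA1-lo replicates 1, 2 and 3 (log2 fold change 0.50, SE 0.10, edgeR adjusted p = 0.00447). Sf3b3 (chr8:110810491-110846806), an SF3B scaffold gene, was at 76.1, 81.6 and 80.8 TPM in LFA1-hi and at 62.5, 65.6 and 57.7 TPM in LFA1-lo replicates 1, 2 and 3 (log2 fold change 0.38, SE 0.08, edgeR adjusted p = 0.00765). Neither gene overlapped between the subsets. Sf3b1, whose product contacts the branch site and which is a recurrent target of mutation in human blood cancers, was at 73.9, 79.4 and 75.8 TPM in LFA1-hi and at 76.9, 78.99 and 75.8 TPM in LFA1-lo replicates 1, 2 and 3. Its 95% interval of −0.15 to 0.16 on the log2 scale bounds any difference.

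Sf3b2, the SF3 gene with the highest mean level, was at 121, 131 and 119 TPM in LFA1-hi and at 123, 115 and 134 TPM in LFA1-lo replicates 1, 2 and 3, with overlapping subsets (log2 fold change 0.02, 95% interval −0.16 to 0.19, and of changing sign across alternatives). Sf3a1, Sf3a2 and Sf3b5 had LFA1-hi libraries above LFA1-lo libraries but adjusted p-values of 0.0888, 0.0863 and 0.0845 in edgeR. Sf3b4 and Sf3b6 overlapped between the subsets. Without LFA1-lo replicate 2 the count of SF3 genes that rose became 4, with Sf3a2 and Sf3b5 added, where 21.8% of all tested genes rose. With scaling by library totals it was 5, where 2294 of all 11692 genes rose.

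Of 10 tested SR protein genes 4 rose and 0 fell in LFA1-hi macrophages (0 lower at an unadjusted p under 0.05 in edgeR and 0 in DESeq2), with a median log2 fold change of 0.19. The 4 were Srsf7, Srsf3, Srsf2 and Srsf1. Srsf7 (chr17:80200080-80207369) and Srsf3 (chr17:29032660-29043372) encode related SR proteins that also act as adaptors for mRNA export. Srsf7 was at 44.5, 51.6 and 47.2 TPM in LFA1-hi and at 24.9, 36.01 and 24.02 TPM in LFA1-lo replicates 1, 2 and 3 (log2 fold change 0.76, SE 0.16, edgeR adjusted p = 0.00726). Srsf3 was at 129, 147 and 129.7 TPM in LFA1-hi and at 76.8, 107.6 and 90.3 TPM in LFA1-lo replicates 1, 2 and 3 (log2 fold change 0.57, SE 0.13, edgeR adjusted p = 0.00857). Srsf2 (chr11:116849897-116853675), which encodes the nuclear speckle protein SC35, was at 166, 193 and 182 TPM in LFA1-hi and at 113, 147 and 118 TPM in LFA1-lo replicates 1, 2 and 3 (log2 fold change 0.53, SE 0.12, edgeR adjusted p = 0.00898). In all of these LFA1-lo replicate 2 was the highest of the LFA1-lo libraries and still below every LFA1-hi library.

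Srsf1 (chr11:88046499-88053757), which encodes the splicing factor SF2, was at 76.8, 78.4 and 72.2 TPM in LFA1-hi and at 55.2, 68.7 and 52.2 TPM in LFA1-lo replicates 1, 2 and 3 (log2 fold change 0.39, SE 0.12, edgeR adjusted p = 0.0301). The call for Srsf1 was lost when any library other than LFA1-lo replicate 2 was left out, and its adjusted p ranged up to 0.108 over the alternatives. The remaining 6 tested SR genes did not pass. Srsf5 and Srsf9 are among the most abundant SR genes here, at 125 ± 4.56 and 130.03 ± 4.75 TPM in LFA1-hi and 134 ± 9.11 and 131 ± 12.7 TPM in LFA1-lo libraries (SD, n = 3 each). Their 95% intervals lay between −0.28 and 0.23 on the log2 scale. Without LFA1-lo replicate 2, Srsf6 and Srsf10 joined the genes that rose, which made 6, and without any other single library the count was 3. SR genes summed to 848, 916 and 850.1 TPM in LFA1-hi and to 687, 820.4 and 687 TPM in LFA1-lo replicates 1, 2 and 3.

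**Figure D3:**
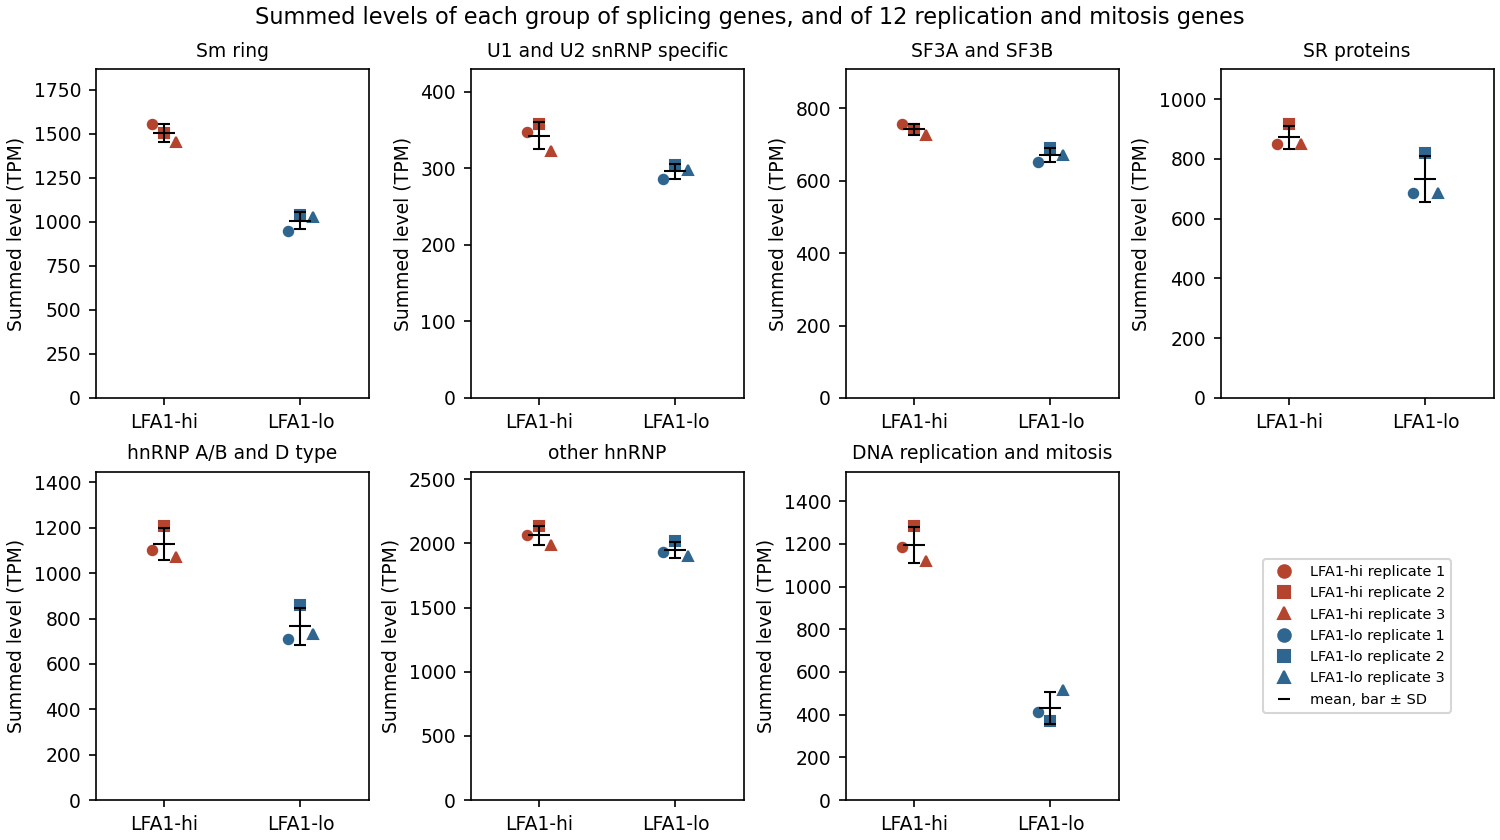
Summed level (TPM, y axes from 0) of the genes of each role, and of the 12 DNA replication and mitosis genes, in each LFA1-hi (red) and LFA1-lo (blue) library, with marker shape for the replicate and bars for mean ± SD of 3 libraries. The ratio of the means was 1.497 for the Sm ring, 1.47 for hnRNP A/B and D type genes and 1.06 for other hnRNP genes, against 2.76 for the replication and mitosis genes.

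The A/B and D type hnRNP proteins share a pair of RNA recognition motifs and bind AU-rich or purine-rich RNA. Of their 7 genes 3 rose in LFA1-hi macrophages and 0 fell (0 lower at an unadjusted p under 0.05 in edgeR and 0 in DESeq2), with a median log2 fold change of 0.29. Hnrnpab (chr11:51600100-51606881), which encodes a regulator of mRNA transport and stability as well as of transcription, was at 465, 470.1 and 413 TPM in LFA1-hi and at 228, 289 and 225 TPM in LFA1-lo replicates 1, 2 and 3 (log2 fold change 0.88, SE 0.12, edgeR adjusted p = 0.000739). Hnrnpa1 (chr15:103239943-103246698), a repressor of many exons, was at 150.6, 195 and 178 TPM in LFA1-hi and at 97.4, 104.8 and 113 TPM in LFA1-lo replicates 1, 2 and 3 (log2 fold change 0.78, SE 0.11, edgeR adjusted p = 0.000702). The subsets were well apart for both genes. Hnrnpa1 had expected counts that were not whole in all 6 libraries, so part of its reads were shared with similar sequences, and its level is less certain for that reason.

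Hnrnpa2b1 (chr6:51460434-51470048), which encodes a protein known for transport and packaging of RNA, was at 277, 312 and 274 TPM in LFA1-hi and at 199, 234 and 219 TPM in LFA1-lo replicates 1, 2 and 3 (log2 fold change 0.43, SE 0.09, edgeR adjusted p = 0.00638). The subsets did not overlap. Hnrnpdl, a relative of Hnrnpab in sequence, did not pass the test. It was at 30.4, 34.97 and 31.8 TPM in LFA1-hi and at 30.2, 44.6 and 28.1 TPM in LFA1-lo replicates 1, 2 and 3, with overlapping subsets (log2 fold change −0.07, 95% interval −0.47 to 0.34). Without LFA1-lo replicate 2 the log2 fold change of Hnrnpdl was 0.19 (edgeR adjusted p = 0.122). The TPM ratio of Hnrnpab to Hnrnpdl was 13.9 ± 1.22 in LFA1-hi and 7.35 ± 0.778 in LFA1-lo libraries (SD, n = 3 each). Its exact permutation p was 0.1, the smallest that 3 against 3 libraries allow (adjusted p = 0.12 over 6 ratios). This pair was chosen after its values were seen, so the ratio is no separate support. Hnrnpd, which encodes the mRNA decay factor AUF1, was at 29.99, 33.1 and 28.2 TPM in LFA1-hi and at 21.1, 33.01 and 24.6 TPM in LFA1-lo replicates 1, 2 and 3. Its LFA1-lo replicate 2 was as high as the LFA1-hi libraries, and with all 6 libraries it did not pass (log2 fold change 0.23, edgeR adjusted p = 0.322), while without that library it did (log2 fold change 0.46, edgeR adjusted p = 0.00066). Hnrnpa3 was likewise called without that library, which made 5 of the 7, and Hnrnpa0 was not called in either fit.

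The other 13 hnRNP genes form a mixed group with few changes. In LFA1-hi macrophages 3 rose and 0 fell (1 was lower at an unadjusted p under 0.05 in edgeR, and DESeq2 called it lower), and the median log2 fold change was 0.10. Of all tested genes 16.1% rose and 15.6% fell. Hnrnpf, which encodes a protein that binds runs of G, had the highest level of all 52 genes in both subsets. It was at 473, 485 and 458 TPM in LFA1-hi and at 432, 449 and 398 TPM in LFA1-lo replicates 1, 2 and 3, and the difference did not pass although the values did not overlap (log2 fold change 0.16, SE 0.08, edgeR adjusted p = 0.146). Of the genes that rose, Hnrnpm was at 158, 154 and 142 TPM in LFA1-hi and at 106.6, 130.3 and 127 TPM in LFA1-lo replicates 1, 2 and 3 (log2 fold change 0.34, SE 0.10, edgeR adjusted p = 0.0284). Hnrnpr was at 16.8, 20.2 and 17.8 TPM in LFA1-hi and at 15.4, 15.9 and 15.04 TPM in LFA1-lo replicates 1, 2 and 3 (log2 fold change 0.26, SE 0.09, edgeR adjusted p = 0.0492). The call for Hnrnpm was lost without any of the LFA1-hi libraries or LFA1-lo replicate 1 (adjusted p up to 0.119 in edgeR), and that for Hnrnpr without any library other than LFA1-lo replicate 2 (up to 0.175). With the replicate block both calls were lost, at adjusted p = 0.0517 for Hnrnpm and 0.0719 for Hnrnpr in edgeR, which left 1 of the 13. Hnrnpr was called in 6 of the 18 alternatives, and also missed the threshold under RLE scaling, without a filter, without the robust fit, in limma voom and in limma on both log2 TPM scales. Without LFA1-lo replicate 2, or with scaling by library totals, 5 of the 13 rose, and 0 rose without LFA1-hi replicate 1.

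Hnrnph1 and Hnrnph2 encode near-identical proteins that bind G runs, and their fold changes had opposite signs, of which that of Hnrnph1 passed the test. Hnrnph1 (chr11:50375257-50386528) was at 85.3, 87.03 and 82.6 TPM in LFA1-hi and at 69.1, 68.6 and 56.8 TPM in LFA1-lo replicates 1, 2 and 3 (log2 fold change 0.41, SE 0.10, edgeR adjusted p = 0.0119). In the fit that left out LFA1-hi replicate 1 the adjusted p of Hnrnph1 was 0.0543 (edgeR). Hnrnph2 (chrX:134601179-134607060) was at 81.5, 84.8 and 80.1 TPM in LFA1-hi and at 93.01, 111.7 and 98.8 TPM in LFA1-lo replicates 1, 2 and 3 (log2 fold change −0.28, SE 0.10, edgeR adjusted p = 0.0503). Over the alternatives the adjusted p of Hnrnph2 ranged over 0.0365 to 0.154, and 6 of the 18 called it lower. Neither overlapped between the subsets, and Hnrnph2 sat at the threshold. The TPM ratio of Hnrnph1 to Hnrnph2 was 1.05, 1.03 and 1.03 in LFA1-hi and 0.743, 0.614 and 0.575 in LFA1-lo replicates 1, 2 and 3 (exact permutation p = 0.1, the smallest that 3 against 3 libraries allow, adjusted p = 0.12 over 6 ratios). Expected counts of both genes were whole in all libraries.

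Hnrnpl and Hnrnpll encode paralogs that bind CA-rich RNA, and Hnrnpll is known for the switch in Ptprc splicing of activated lymphocytes. Hnrnpl was at 272, 257 and 257 TPM in LFA1-hi and at 255, 263 and 228 TPM in LFA1-lo replicates 1, 2 and 3. Hnrnpll was at 37.4, 39.7 and 37.2 TPM in LFA1-hi and at 37.3, 32.7 and 39.7 TPM in LFA1-lo replicates 1, 2 and 3. Both genes overlapped between the subsets, and their ratio was 6.88 ± 0.39 in LFA1-hi and 6.87 ± 1.15 in LFA1-lo libraries (SD, n = 3 each, 2-sided exact permutation p = 0.9). Hnrnpk and Hnrnpu, ranked 3 and 4 by level in LFA1-hi libraries, averaged 325 ± 17.2 and 301 ± 20.6 TPM in LFA1-hi and 320.1 ± 12.5 and 266 ± 22.4 TPM in LFA1-lo libraries (SD, n = 3 each). Hnrnpc, which binds U tracts, had LFA1-lo libraries above LFA1-hi libraries by a small margin (92.4 ± 3.46 TPM in LFA1-hi and 98.6 ± 0.558 TPM in LFA1-lo), and its log2 fold change of −0.07 did not pass. Hnrnph3, at 5.13 ± 1.32 TPM in LFA1-hi and 4.15 ± 1.91 TPM in LFA1-lo libraries, was the lowest of the tested genes and the least certain, with a 95% interval of −0.49 to 1.13.

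Levels of the 50 genes spanned from that of Hnrnph3 to that of Hnrnpf, and the order differed between the subsets. Hnrnpab ranked 2 in LFA1-hi and 5 in LFA1-lo libraries, Snrpd1 ranked 14 in LFA1-hi and 23 in LFA1-lo libraries, and Hnrnpa1 ranked 13 in LFA1-hi and 20 in LFA1-lo libraries. In LFA1-hi libraries Hnrnpf and Hnrnpab differed by less than the SD of Hnrnpab, and Snrpg, Hnrnpa2b1 and Hnrnpu were likewise within the SD of Hnrnpu of each other. Of the 30 genes that did not pass, 27 had a 95% interval within 1.5-fold in both directions, which bounds the differences not called. The exceptions were Hnrnpd, Hnrnph3 and Sf3b5.

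**Figure D4:**
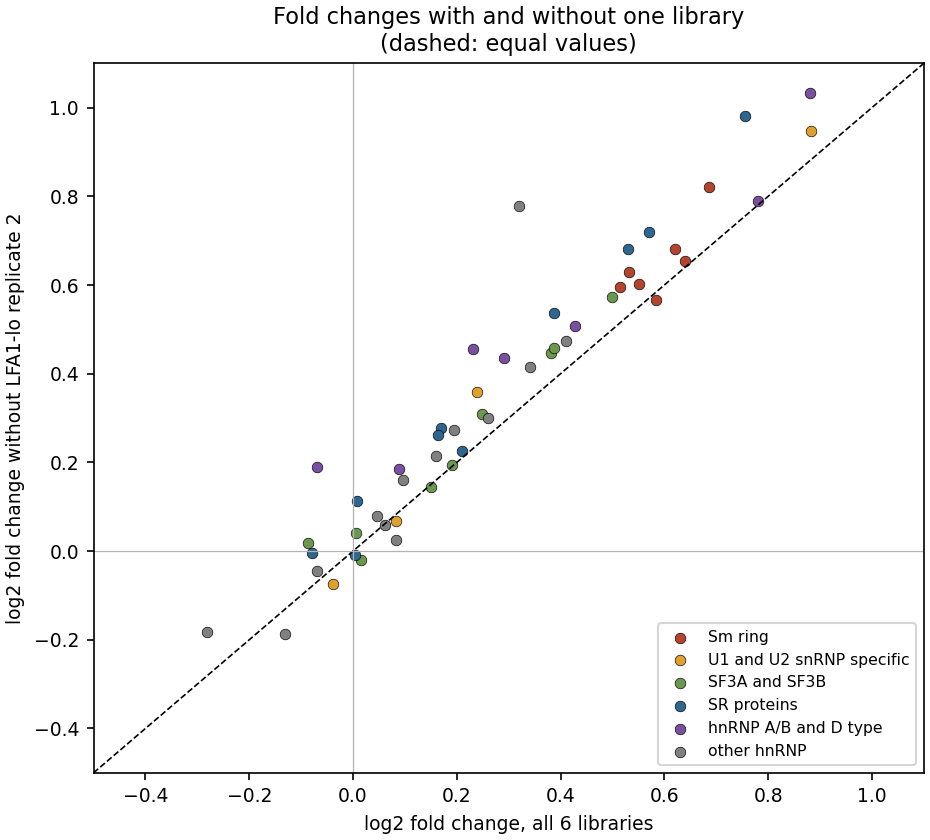
Log2 fold change (LFA1-hi minus LFA1-lo) of each tested splicing gene without LFA1-lo replicate 2 (y axis) against that with all 6 libraries (x axis), coloured by role, with a dashed line of equal values. Most points lie above the line, and the median log2 fold change was 0.30 without that library and 0.23 with it.

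LFA1-lo replicate 2 bears on the count of calls. It had the highest TPM of the 3 LFA1-lo libraries for 33 of the 50 genes (66%), against 32% of all tested genes, and this held for 8 of 10 SR genes and 6 of 7 A/B and D type hnRNP genes but for 4 of 7 Sm genes. Without it 29 of the 50 genes rose and 0 fell (2 lower at an unadjusted p under 0.05, edgeR), where 21.8% of all tested genes rose and 20.5% fell. All 20 genes called with the 6 libraries were among the 29. The 9 added were Hnrnpa3, Hnrnpd, Hnrnpf, Hnrnpu, Sf3a2, Sf3b5, Snrpc, Srsf6 and Srsf10, with log2 fold changes of 0.22 to 0.46. Where LFA1-lo replicate 2 was the highest LFA1-lo library, leaving it out raises the log2 fold change by construction. Calls gained in that way are no separate support. Leaving out any other single library gave 16 to 18 genes that rose. In all, 16 of the 20 called genes were called under each of the 18 alternative fits, and the exceptions were Hnrnph1, Hnrnpm, Hnrnpr and Srsf1.

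Isoform mix was examined through the transcript length that RSEM reports for each gene, which is weighted by the abundance of the gene's isoforms. Of the 50 genes 19 list more than 1 transcript, and 18 of these could be tested with limma on log2 length. None changed at an adjusted p of 0.05 (0 of 18, 1 at an unadjusted p under 0.05, and 2 with effective length), where 0.0661% of 3024 genes passed and 7.9% had an unadjusted p under 0.05. The largest shift was 2.64%, for Hnrnpa3, whose length averaged 4972 bases in LFA1-hi and 5101 bases in LFA1-lo libraries. Hnrnpc had the smallest unadjusted p, with 2802 bases in LFA1-hi and 2796 bases in LFA1-lo libraries (limma adjusted p = 0.599). Isoforms of equal length, and the poison exons by which many SR and hnRNP genes limit their own expression where the annotation lacks them, are not seen by this measure.

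Other genes of the splicing pathway, 148 tested genes in 9 lists, were examined beside these. Of the 148, 38 rose and 7 fell in LFA1-hi macrophages, with a median log2 fold change of 0.17, where 16.1% of all tested genes rose and 15.6% fell. The count of each of the 9 lists is to be read against these shares. Of 22 genes of the U4/U6.U5 tri-snRNP and of the LSm ring that holds U6 RNA, 9 rose and 0 fell, with a median of 0.39. At an unadjusted p under 0.05 in edgeR, Prpf38b and Prpf6 of this list were lower. DESeq2 called 0 lower, and Prpf38b was called lower in 3 alternatives and Prpf6 in 1, without LFA1-lo replicate 2. The LSm ring, the U6 counterpart of the Sm ring, had 4 of 7 genes higher with a median of 0.65, and the tri-snRNP genes had 5 of 15 higher with a median of 0.19. Ppih, which encodes a cyclophilin of the tri-snRNP, was at 61.2, 69.5 and 50.5 TPM in LFA1-hi and at 24.1, 34.2 and 27.6 TPM in LFA1-lo replicates 1, 2 and 3 (log2 fold change 1.03, edgeR adjusted p = 0.00115). Lsm2 was at 74.4, 81.3 and 71.2 TPM in LFA1-hi and at 24.4, 43.1 and 45.2 TPM in LFA1-lo replicates 1, 2 and 3 (log2 fold change 1.02, edgeR adjusted p = 0.00724). With scaling by library totals 15 of the 22 rose, and without LFA1-lo replicate 2 it was 13. Leaving out any other single library gave 7 to 8.

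Sm rings are built onto snRNAs by the SMN complex. Of 16 genes for this complex and its partners 6 rose and 0 fell (1 was called lower in DESeq2, in limma on both log2 TPM scales and without LFA1-hi replicate 1), with a median log2 fold change of 0.34. Gemin2, whose product holds the Sm proteins during assembly, was at 10.4, 14.2 and 9.64 TPM in LFA1-hi and at 6.04, 7.27 and 3.36 TPM in LFA1-lo replicates 1, 2 and 3 (log2 fold change 1.04, SE 0.32, edgeR adjusted p = 0.0357). Gemin6 was at 14.95, 15.3 and 12.8 TPM in LFA1-hi and at 4.92, 9.23 and 7.12 TPM in LFA1-lo replicates 1, 2 and 3 (log2 fold change 1.03, SE 0.27, edgeR adjusted p = 0.0189). Leaving out LFA1-hi replicate 1, 2 or 3 or LFA1-lo replicate 1 gave 2 to 3 genes that rose, and 9 rose without LFA1-lo replicate 2. Gemin2 lost its call without any library other than that one.

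Of 7 genes named Snrnp, 2 rose and 0 fell (0 lower in DESeq2). Snrnp25, which encodes a protein of the minor spliceosome, was at 50.5, 43.2 and 54.1 TPM in LFA1-hi and at 18.6, 24.6 and 25.3 TPM in LFA1-lo replicates 1, 2 and 3 (log2 fold change 1.13, SE 0.18, edgeR adjusted p = 0.0018). Snrnp70, which encodes the U1 protein that SR proteins contact, was at 185, 170.01 and 168 TPM in LFA1-hi and at 127, 124 and 129 TPM in LFA1-lo replicates 1, 2 and 3 (log2 fold change 0.39, SE 0.08, edgeR adjusted p = 0.00568). Of 15 genes of 3′ splice site recognition 5 rose and 1 fell. Phf5a, a further SF3B subunit gene, had a log2 fold change of 0.57 (46.3 ± 1.05 TPM in LFA1-hi and 31.7 ± 1.56 TPM in LFA1-lo libraries, SD, n = 3 each). U2af1, which encodes the subunit that reads the AG at the end of the intron, had one of 0.54 (162 ± 17.2 TPM in LFA1-hi and 112 ± 22.7 TPM in LFA1-lo). Rbm5, which encodes a regulator of splicing of death receptor transcripts, fell by 0.49 on the log2 scale (36.97 ± 2.16 TPM in LFA1-hi and 52.6 ± 3.42 TPM in LFA1-lo). In this list 2 to 3 genes rose without any single library other than LFA1-lo replicate 2, and U2af1 lost its call in 4 of these 5 fits.

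The later steps are catalysis and the marking of spliced mRNA. Of 21 genes of the Prpf19 complex (NTC) and catalytic activation only Prpf19 rose and 0 fell (0 lower in DESeq2), with a median log2 fold change of 0.05, so that the share that rose was under the 16.1% of all tested genes. Prpf19, a ubiquitin ligase gene, was at 24.3 ± 1.14 TPM in LFA1-hi and 19.1 ± 0.362 TPM in LFA1-lo libraries (SD, n = 3 each, log2 fold change 0.37). Without LFA1-lo replicate 2 the count was 3. Of 16 genes of the exon junction complex, mRNA export and nonsense-mediated decay 4 rose and 1 fell. Magohb, a paralog of the core gene Magoh, was at 22.2, 24.4 and 16.2 TPM in LFA1-hi and at 12.4, 6.68 and 9.91 TPM in LFA1-lo replicates 1, 2 and 3 (log2 fold change 1.13, SE 0.28, edgeR adjusted p = 0.0144), a call lost without LFA1-hi replicate 1 or 2. Magoh itself did not pass (log2 fold change 0.19, edgeR adjusted p = 0.382). The TPM ratio of Magohb to Magoh, a pair chosen after its values were seen, was 0.270 ± 0.0546 in LFA1-hi and 0.142 ± 0.0498 in LFA1-lo libraries (SD). Its exact permutation p was 0.1, the smallest that 3 against 3 libraries allow (adjusted p = 0.12 over 6 ratios). Ddx39, an RNA helicase gene, had a log2 fold change of 0.98 and Smg6, an endonuclease gene of nonsense-mediated decay, fell by 0.48 on the log2 scale.

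**Figure D5:**
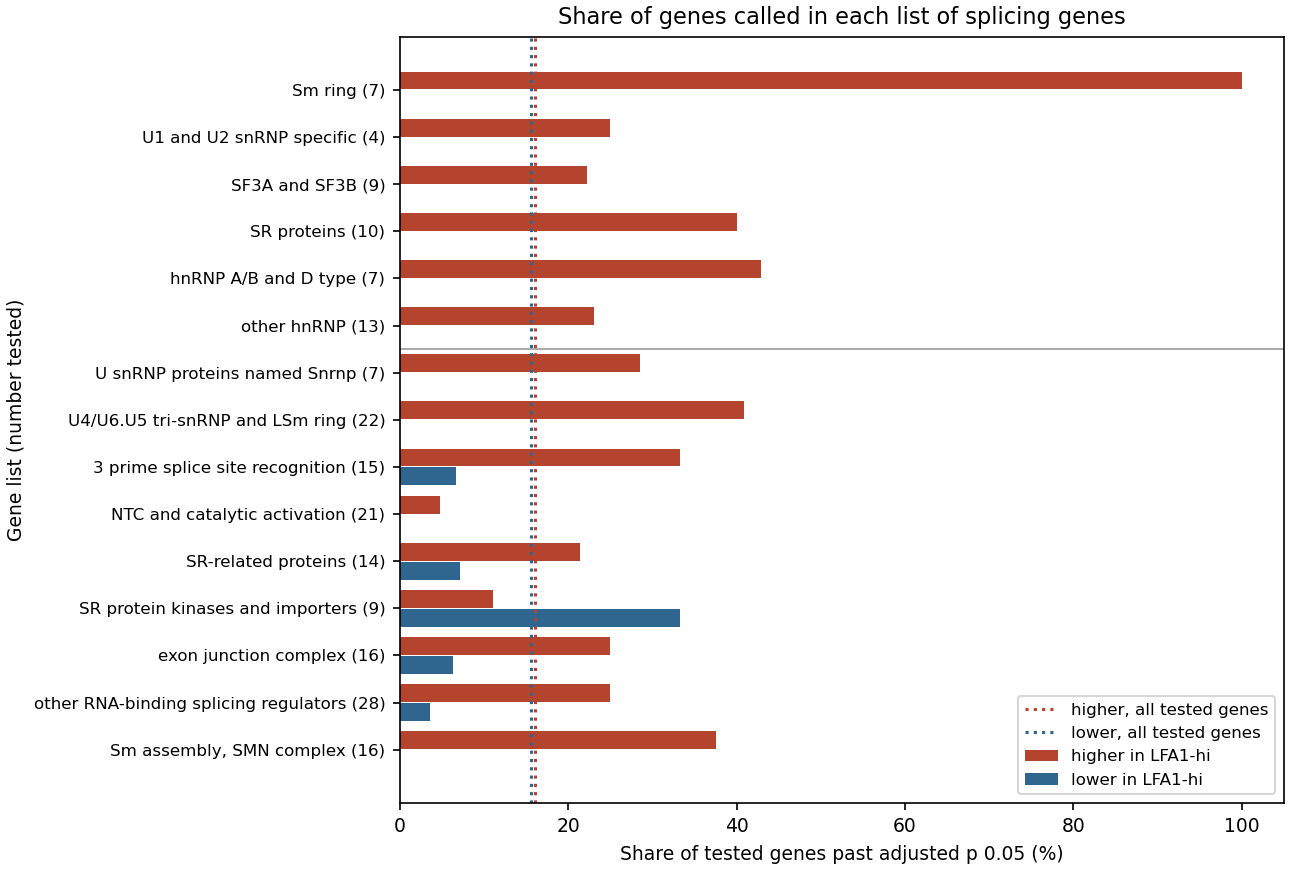
Share of tested genes (%, x axis) called higher (red) or lower (blue) in LFA1-hi at an adjusted p of 0.05 in edgeR, for each list of splicing genes with its number of tested genes (y axis); the grey line divides the 6 groups of the 50 genes, above, from the 9 other lists, below. Dotted lines mark all tested genes (16.1% higher and 15.6% lower), and the SR protein kinases and importers have more genes lower (3 of 9) than higher (1 of 9).

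SR proteins are controlled by phosphorylation and are brought into the nucleus by a dedicated importer. Of 9 tested genes for these kinases and importers 1 rose and 3 fell in LFA1-hi macrophages, with a median log2 fold change of −0.10. The 3 that fell encode CLK kinases, which phosphorylate SR proteins in the nucleus. Clk1 was at 29.2, 29.2 and 28.99 TPM in LFA1-hi and at 47.6, 42.8 and 41.2 TPM in LFA1-lo replicates 1, 2 and 3 (log2 fold change −0.62, SE 0.10, edgeR adjusted p = 0.00188). Clk4 was at 10.97, 8.35 and 12.2 TPM in LFA1-hi and at 16.7, 15.1 and 15.8 TPM in LFA1-lo replicates 1, 2 and 3 (log2 fold change −0.56, SE 0.18, edgeR adjusted p = 0.0396). Clk2 fell by 0.45 on the log2 scale. Srpk1, which encodes a kinase that acts on SR proteins mainly in the cytoplasm, was at 43.9, 49.7 and 46.8 TPM in LFA1-hi and at 39.5, 40.99 and 34.2 TPM in LFA1-lo replicates 1, 2 and 3 (log2 fold change 0.31, SE 0.10, edgeR adjusted p = 0.0414). Clk1 was called lower in each of the 18 alternative fits, whereas 1 gene was called lower if LFA1-hi replicate 2 or LFA1-lo replicate 1 was left out. The calls for Clk2 and Clk4 were both lost without LFA1-hi replicate 2 and without LFA1-lo replicate 1. The call for Srpk1 was lost without any single library other than LFA1-lo replicate 2, in limma on both log2 TPM scales and with the replicate block.

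Of 14 SR-related genes 3 rose and 1 fell, with a median log2 fold change of 0.02. Luc7l, which encodes a U1-associated protein, had a log2 fold change of 0.50 (29.2 ± 3.92 TPM in LFA1-hi and 20.9 ± 2.79 TPM in LFA1-lo libraries, SD, n = 3 each). Rnps1 and Acin1, whose products sit in the same complex on spliced mRNA, went opposite ways, with log2 fold changes of 0.42 and −0.30. Both calls were lost without any of the LFA1-hi libraries or LFA1-lo replicate 1. The call for Acin1 was also lost with scaling by library totals and in limma on both log2 TPM scales. No gene of the list rose in the fits that left out LFA1-hi replicate 2 or 3. Of 28 other RNA-binding splicing regulators 7 rose and 1 fell, with a median of 0.17. Mbnl3, a muscleblind family gene, was at 4.15, 4.86 and 3.89 TPM in LFA1-hi and at 1.54, 1.39 and 2.58 TPM in LFA1-lo replicates 1, 2 and 3 (log2 fold change 1.25, SE 0.22, edgeR adjusted p = 0.0029). Ilf2, which encodes NF45, had a log2 fold change of 0.83, and Qk, which encodes the STAR protein quaking, fell by 0.33 on the log2 scale. The call for Qk was lost without any of the LFA1-hi libraries (adjusted p up to 0.0647 in edgeR). The count that rose in that list was 4 without LFA1-hi replicate 1, 12 without LFA1-lo replicate 2 and 13 with scaling by library totals.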

How the data were processed

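Per the labels' protocols, the total RNA of all 6 libraries had been depleted of ribosomal RNA. The tools bcl2fastq, Trim Galore and RSEM and the build GRCm38 come from the submitters' processing notes. Their versions and the aligner, annotation release and strand setting were not given in the sources used here. Per the file headers, the deposited expected counts are RSEM's estimates of reads per gene, not normalized. The deposited TPM and FPKM values were, per the file headers, scaled by effective length and library size; FPKM served only as an alternative to TPM.

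Expected counts were rounded (5.53% to 6.06% of genes per library were not whole) and filtered with filterByExpr, which left 11692 genes. Scaling was by TMM and testing by robust quasi-likelihood fits in edgeR 4.0.16 (R 4.3.3) without covariates, on both groups together, with Benjamini-Hochberg adjustment over all 11692 genes at 0.05. The biological coefficient of variation was 15.0%. Length was tested with limma 3.58.1. The procedure was tested on simulated data. Alternatives were RLE, upper quartile and library-total scaling, no filter or a filter of 10 CPM in 3 libraries, unrounded counts, fits that were not robust, DESeq2 1.42.0, voom, limma on log2(TPM + 1) and log2(TPM + 0.1), a threshold of 0.01, a replicate block and each library left out.

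The members, the lists of related genes and the tests were chosen with earlier results of these data known. Values per library are given for the 10 called members with the largest fold changes, the most abundant member of each role and 4 paralog pairs, of which the pair with Snrpn could not be compared; of the other lists, for up to 2 called genes each way. Further members, Clk2, Magoh, Prpf38b and Prpf6 were chosen after their values were seen. So was leaving out LFA1-lo replicate 2 for the pair ratios, of which the values are not given here. Reads of paralogs and overlapping genes are uncertain. Expected counts were not whole in at least 1 library for 8 members, of which Hnrnpa1 and Snrpf were called, and 17 of the 50 tested members overlap another annotated gene, of which 6 were called (Hnrnpab, Sf3a3, Sf3b3, Snrpd3, Snrpf and Srsf2). Intervals and floors cover counting and library spread only. Coordinates are RefSeq's on GRCm38, counted from 1.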

Additional observations from a re-analysis of the deposited data

How the results depend on the processing

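Of 3705 genes called, 50.8% were higher in LFA1-hi, which became 60.9% with scaling by library totals. An adjusted p of 0.01 left 2024 genes, and fits without a library called 2288 to 5032. The count of members called lower, 0 as reported, was 1 (Hnrnph2) under DESeq2, under RLE scaling, with at least 10 CPM in 3 libraries and in limma on log2(TPM + 0.1) and on log2(TPM + 1), and ranged over 0 to 1 in fits without a library (1 without LFA1-lo replicate 1). The cause was not tested. The members' median log2 fold change ranged over 0.19 to 0.30 in fits without a library, the upper end being without LFA1-lo replicate 2. Direction reversed for 7 of the 50 members, none of them called. Hnrnpdl, at −0.069 with all libraries, ranged over −0.198 to 0.191 without a library, the upper end being without LFA1-lo replicate 2, and Sf3b4, at −0.088, over −0.163 to 0.018, likewise. The other members that reversed lay nearer 0 as reported. In limma on log2(TPM + 0.1) and on log2(TPM + 1), Sf3b2 was at −0.0047 and −0.0047, Sf3b1 at −0.0167 and −0.0165, Srsf11 at −0.018 and −0.0176 and Srsf9 at −0.0025 and −0.0025. Srsf11 was at −0.0014 in DESeq2 and −0.00125 under RLE scaling, and Snrpb2 was at 0.023 with library totals. Without a library, Sf3b2 ranged over −0.020 to 0.071, Sf3b1 over −0.0119 to 0.042, Srsf11 over −0.0096 to 0.020 and Srsf9 over −0.053 to 0.112. The cause was not tested.

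The replicate numbers were also fitted as a block. With the replicate block the count of genes called was 3253, and 18 members rose, with the calls for Hnrnpm and Hnrnpr lost. Deviations of libraries with the same number correlated at 0.037, 0.018 and −0.072 for numbers 1, 2 and 3, and not every library correlated best with its own number, so the numbers are taken as names only.

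With 3 libraries per group and unknown origin, differences under about the reported intervals cannot be seen. TPM and CPM are relative, so RNA per cell was not measured.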
